A study of Mus musculus with 10 samples.

Results

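The gastrokine, trefoil and gut secretory genes are 10 genes that epithelia of the stomach and intestine are known for: the gastrokines Gkn1 and Gkn2, the trefoil factors Tff1, Tff2 and Tff3, the mucin Muc1, the disulfide isomerase Agr2, the transcription factor Cdx2, the actin-bundling protein villin (Vil1) and the tetraspanin Tspan8. They were measured in BMEL cells, which derive from mouse embryonic liver, are called bipotential and are known to give rise to both hepatocyte-like and bile duct-like cells. One group of 5 arrays came from cells transfected by Oligofectamine with a locked nucleic acid (LNA) oligonucleotide antisense to miR-30a, and a control group of 5 arrays from cells transfected the same way with a scrambled oligonucleotide. The labels name neither the dose, the time after transfection nor the arm of miR-30a that was targeted, and all arrays come from the same line. Nor do they state if the 5 arrays per group stem from separate cultures, and the p-values therefore cover only array-to-array spread, which may be technical. Members were found by symbol: 17 probe sets of the array carry exactly 1 of the 10 symbols, out of 45037 probe sets that are not array controls, and the 10 genes stand among 18193 named genes. The 10 were chosen on earlier results from this comparison, the measured decreases of Gkn2 and Tff3 among them, and on their known place in gut epithelium. Their changes are therefore a description of these arrays and give no independent support to one another.

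Gastrokines and trefoil factors are small secreted proteins of the mucous epithelium. Gastrokines carry a BRICHOS domain and are made by surface cells of the stomach, while trefoil factors are packed with mucins and help to protect and repair the surface. Tff1 and Tff2 are best known from the stomach and Tff3 from intestinal goblet cells, and Tff3 is also known from bile duct epithelium. Gkn1 and Gkn2 are neighbours on chromosome 6, and the trefoil factor genes Tff3, Tff2 and Tff1 lie next to each other on chromosome 17.

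The microRNA that the oligonucleotide targets is shown first, because related microRNAs share its seed. The mature 5′ arm of miR-30a lies at chr1:23272274-23272295 on the + strand of GRCm38.p6. Shown with it are 3 other mature mouse microRNAs with the same seed, those found in the RefSeq entries used here. This list may not hold every mouse microRNA with that seed. Bases 2 to 8, the seed, are in capitals.
mmu-miR-30a-5p: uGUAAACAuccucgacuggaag
mmu-miR-30e-5p: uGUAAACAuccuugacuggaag
mmu-miR-30c-5p: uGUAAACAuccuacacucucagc
mmu-miR-384-5p: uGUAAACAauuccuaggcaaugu

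The gastrokine pair is shown by the 250 bases before each start, since the results turn on these neighbours. The Gkn2 window is chr6:87373115-87373364 on the + strand and the Gkn1 window chr6:87350916-87351165 on the - strand of GRCm38.p6, both from RefSeq. Capitals mark matches on either strand to 5 short motifs, none of which overlap here. They are GATAAG, the core of GATA factor sites, TTTATG, known from CDX factor sites, TGTTTAC, known from FOXA factor sites, the AP-1 motif TGAGTCA and the TATA box letters TATAAA.
Gkn2: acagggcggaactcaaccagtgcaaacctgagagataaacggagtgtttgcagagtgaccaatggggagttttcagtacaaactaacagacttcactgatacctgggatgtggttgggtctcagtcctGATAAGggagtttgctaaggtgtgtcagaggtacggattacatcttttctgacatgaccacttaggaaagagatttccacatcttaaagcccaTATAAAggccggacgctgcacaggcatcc
Gkn1: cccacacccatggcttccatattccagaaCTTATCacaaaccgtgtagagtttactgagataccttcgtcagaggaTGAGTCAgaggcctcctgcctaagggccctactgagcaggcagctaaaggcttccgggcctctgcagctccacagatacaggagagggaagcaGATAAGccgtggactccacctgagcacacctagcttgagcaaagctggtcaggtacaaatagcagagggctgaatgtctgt

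The Gkn2 window holds GATAAG starting 122 bases before the start and TATAAA at 29 bases. The Gkn1 window holds GATAAG in the gene's direction at 81 bases and on the opposite strand at 221 bases, with TGAGTCA at 174 bases. Of 32851 promoter windows of the same length, 6.55% held GATAAG, 12.4% TATAAA, 10.8% TTTATG, 4.46% TGAGTCA and 3.17% TGTTTAC. Among the 7 members with a window in the table, GATAAG was found in Gkn1 and Gkn2, TGTTTAC in Cdx2 and Tspan8, TATAAA in Muc1 and Gkn2, TTTATG in Agr2 and TGAGTCA in Gkn1. The window of Vil1 held none of these letters. These matches are letters in a window and say nothing on their own about binding.

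The label of the line was checked against its markers. All 11 hepatoblast and liver epithelial markers on the array passed the filter on dim probe sets, a mean log2 level of at least 4.56, below which 40% of probe sets fall. Each gene stood by its brightest probe set, and 12633 of all 18193 named genes passed. Passing the filter therefore does not by itself mark a cell type. The 11 markers include the simple epithelial keratins Krt8 and Krt18, the duct keratin Krt19 and the hepatocyte regulator Hnf4a. Alb, the albumin gene, lay just above the filter level in both groups (4.70 and 4.73). Gut markers were mixed. Of 19 stomach genes on the array 11 were above the filter, from Ctse (8.62 in the antisense and 8.52 in the scrambled arrays) and Anxa10 (8.32 and 8.35) to Barx1 (4.90 and 4.77), with Cblif and Atp4a among the 8 under it. Of 21 goblet and mucus genes 11 were above it, from Klf4 (10.48 and 10.80) and Fcgbp (8.71 and 8.38) to Spdef (4.66 in both groups), with Clca1 among the 10 under it. Of 25 brush border and enterocyte genes 20 were above it, with Lct among the 5 under it. They ran from Lgals4 (13.08 and 13.17), Ezr (12.14 and 12.06), Krt20 (11.41 and 11.40) and Cdh17 (10.69 and 10.70) down to Dpp4 (4.55 and 4.71). The medians of the arrays lay between 5.21 and 5.24 (log2), and the test covered 12633 genes. Scrambled replicate 1 stood apart in the array's RNA quality controls. Its 3′ minus 5′ log2 signal was 0.34 for actin and -0.0047 for Gapdh, while the other 9 arrays ran from 0.21 to 0.28 and from -0.091 to -0.043. Without that array the change of Gkn2 was -0.81 (limma adjusted p = 0.0336) and that of Tff3 -0.42 (adjusted p = 0.0901). With the block and both arrays of replicate 1 left out, Tff3 was at -0.40 (adjusted p = 0.0379).

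Gkn2 showed the largest change of the 10 genes. Its log2 level was 8.69, 8.39, 8.58, 8.65 and 9.15 in scrambled replicates 1 to 5 and 7.80, 7.49, 8.09, 7.89 and 8.13 in antisense replicates 1 to 5. Every antisense array lay below every scrambled array. The means were 8.69 ± 0.28 (SD, n = 5) and 7.88 ± 0.26 (SD, n = 5), so Gkn2 fell by 0.81 on the log2 scale, a 1.76-fold difference (SE 0.14, limma adjusted p = 0.0124). With the replicate number as a block the SE was 0.070 and the adjusted p 0.00271. Gkn2 passed the threshold of 0.05 with any single array left out, with adjusted p from 0.0105 to 0.0411. Scrambled replicate 5 had the highest value, and without it the change was -0.70. The array has 1 probe set for Gkn2, 1453132_a_at, so no second probe set bears on it. In RNA from whole cultures, fewer cells that express a gene and less of its RNA per cell cannot be told apart.

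Gkn1, the neighbouring gastrokine, did not pass the test. Its log2 level was 5.24, 5.23, 5.16, 5.18 and 5.31 in scrambled replicates 1 to 5 and 4.77, 5.09, 5.18, 4.98 and 5.08 in the antisense replicates. Antisense replicate 1 was the lowest array and antisense replicate 3 lay within the scrambled range, so the groups overlapped. The change was -0.20 (SE 0.067, adjusted p = 0.192, and 0.150 with the block). This main probe set, 1437340_x_at, is of a type that can share probes with other transcripts. The other Gkn1 probe set, 1423404_at, was under the filter level with a mean of 4.08 and a change of -0.08. Gkn3, the third gastrokine gene and the next gene beyond Gkn2, was at 5.58 in the antisense and 5.59 in the scrambled arrays, a change of -0.01 (adjusted p = 0.979).

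Among the trefoil factors, Tff3 fell and the others did not pass. Tff3 had log2 levels of 8.0, 7.68, 7.87, 7.78 and 8.04 in scrambled replicates 1 to 5 and of 7.34, 7.11, 7.41, 7.57 and 7.65 in antisense replicates 1 to 5. The groups did not overlap, and the gap between the highest antisense array (7.65) and the lowest scrambled array (7.68) was narrow. The change was -0.46, a 1.37-fold difference (SE 0.097, limma adjusted p = 0.0358), or an adjusted p of 0.0108 and an SE of 0.062 with the block. Without the block this call depended on single arrays. Leaving out antisense replicate 1, 2, 3 or 4 gave an adjusted p of 0.0714, 0.0522, 0.0812 or 0.0551. Leaving out scrambled replicate 1, 3, 4 or 5 gave 0.0901, 0.0782, 0.0594 or 0.0799. It was 0.0518 with no filter and 0.0673 when all 27022 probe sets above the filter were tested one by one, of which 0.0999% were called lower (0.492% with the block, Tff3 among them at an adjusted p of 0.0249). With the block, Tff3 passed with each pair of same-numbered arrays left out, with adjusted p from 0.0106 to 0.0499.

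Tff1 was measured at a high signal with little spread. Its log2 level ran from 11.0 to 11.2 in the scrambled arrays and from 10.9 to 11.0 in the antisense arrays. The difference of -0.11 (SE 0.044, adjusted p = 0.303, and 0.173 with the block) was below 0 in all 5 pairs, from -0.18 to -0.05. Tff2, the middle gene of the cluster, was at 4.87 ± 0.13 (SD, n = 5) in the scrambled and 4.84 ± 0.11 (SD, n = 5) in the antisense arrays. Its change of -0.03 (SE 0.067, adjusted p = 0.914) changed sign when antisense replicate 3 or scrambled replicate 5 was left out (0.0038 and 0.025). The 3 neighbouring trefoil genes thus had changes of -0.46, -0.03 and -0.11 in their order along the chromosome, and a difference between these changes was not tested.

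**Figure D1:**
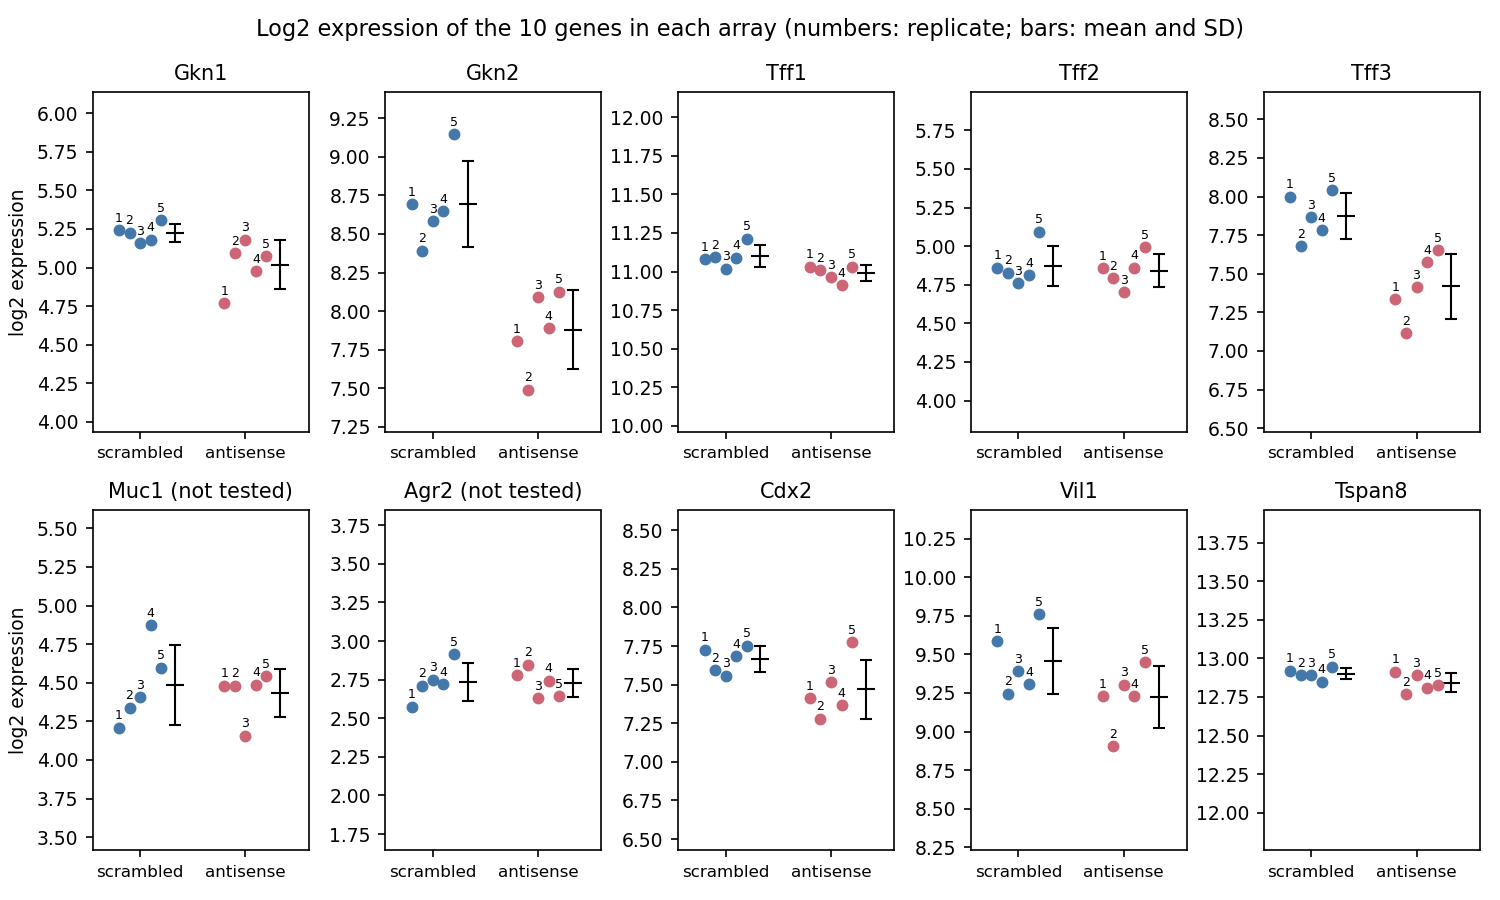
Log2 expression (y axis, each panel spanning the same range) of the main probe set of each of the 10 genes in 5 scrambled and 5 antisense arrays (points, numbered by replicate), with the mean and SD of each group beside them. Gkn2 and Tff3 have no overlap between the groups, and in the other 8 panels the groups overlap.

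Vil1 encodes villin, which bundles actin in the microvilli of the brush border. Its log2 level was 9.59, 9.24, 9.39, 9.31 and 9.76 in scrambled replicates 1 to 5 and 9.23, 8.90, 9.30, 9.23 and 9.45 in the antisense replicates. The groups overlapped, yet the antisense array was the lower one in all 5 pairs, by 0.078 to 0.36. The change of -0.24 did not pass the test (SE 0.11, adjusted p = 0.382, and SE 0.053, adjusted p = 0.0589 with the block).

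Cdx2, a homeobox factor of intestinal identity, had log2 levels of 7.73, 7.59, 7.56, 7.69 and 7.75 in scrambled replicates 1 to 5 and of 7.41, 7.28, 7.52, 7.37 and 7.78 in the antisense replicates. Antisense replicate 5 was the highest of all 10 arrays and the other antisense arrays lay below every scrambled array. The change was -0.19 (SE 0.080, adjusted p = 0.320, and 0.150 with the block), or -0.27 (adjusted p = 0.0533) without antisense replicate 5. The second Cdx2 probe set, 1422074_at, had a mean of 6.22 and a change of -0.03, so the size for Cdx2 depends on the probe set.

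Tspan8, a tetraspanin of gut and other epithelia, was covered by 5 probe sets, all above the filter. The brightest had means of 12.90 ± 0.036 (SD, n = 5) in the scrambled and 12.84 ± 0.060 (SD, n = 5) in the antisense arrays, a change of -0.06 (SE 0.040, adjusted p = 0.611). The others had changes from -0.13 to -0.04, and none of the 5 passed the test over all probe sets, with or without the block. Muc1, a membrane mucin, and Agr2, an endoplasmic reticulum protein needed for mucin production, stayed under the filter level and were not tested. Muc1 was at 4.48 ± 0.26 (SD, n = 5) in the scrambled and 4.43 ± 0.16 (SD, n = 5) in the antisense arrays. Agr2 was at 2.73 in both groups on its brighter probe set, and its other probe set had a mean of 2.22.

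Of the 8 tested members, Gkn2 and Tff3 fell and none rose, without and with the replicate block. Over all genes tested, limma called 1.53% without the block (0.372% lower and 1.16% higher) and 3.05% with it (1.04% lower and 2% higher). All 8 changes were below 0, which held for 44.9% of all genes tested, and 2 of the 8 had groups that did not overlap with the antisense arrays lower, which held for 1.18%. Because this comparison was in view when the genes were chosen, nothing is read from these counts. The median change of the gastrokine and trefoil genes was -0.20, and that of Cdx2, Vil1 and Tspan8 was -0.19, beside 0.01 over all genes tested.

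**Figure D2:**
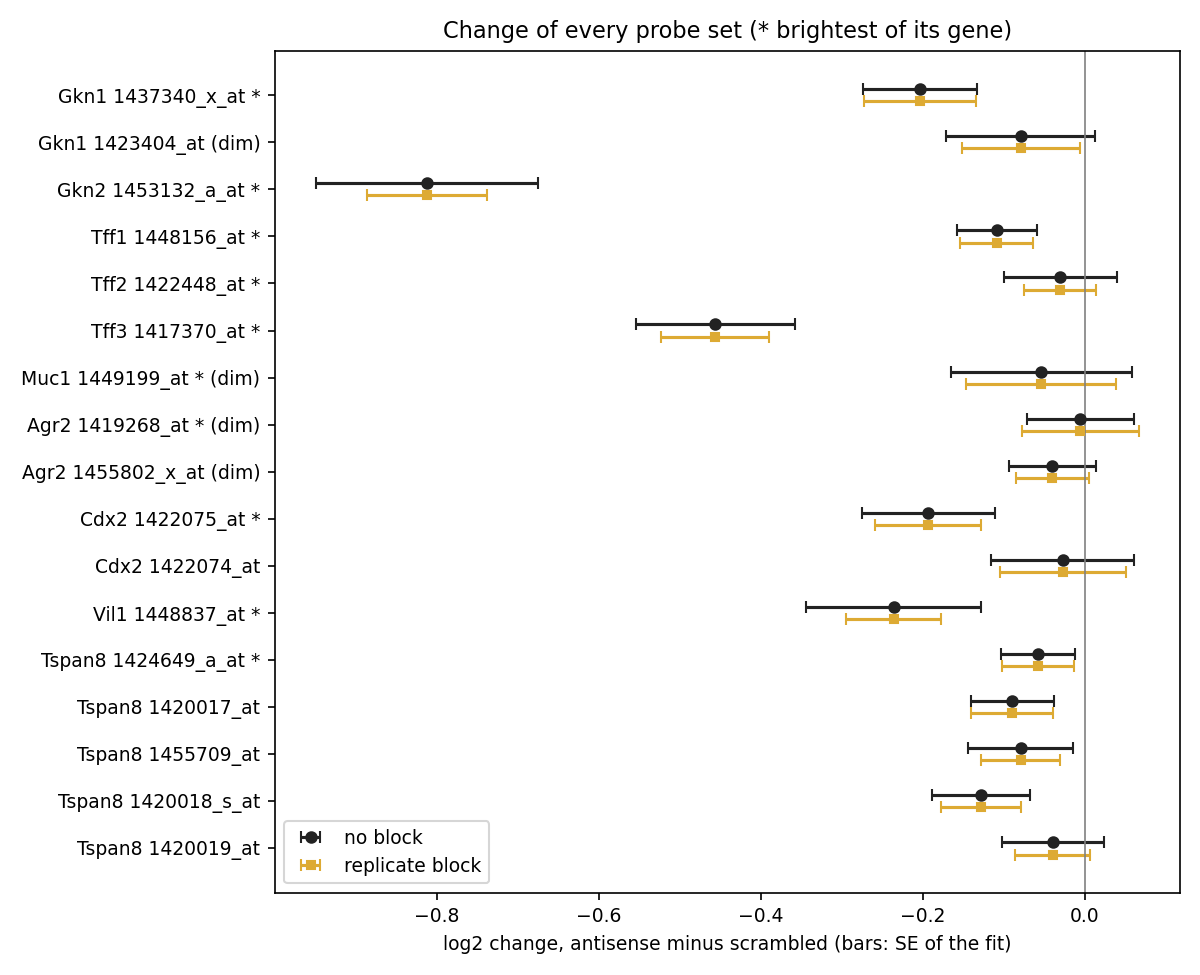
Log2 change, antisense minus scrambled, of all 17 probe sets, with the SE of a fit to all probe sets without a filter, without a block (black) and with the replicate block (yellow). All 17 points lie below 0, and only Gkn2 and Tff3 lie beyond -0.40.

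The arrays that were low or high for one of these genes tended to be so for others. After subtraction of each group's mean, Gkn2 and Vil1 had a correlation of 0.93 over the 10 arrays, Tff3 and Vil1 of 0.90, and Gkn2 and Tff3 of 0.82. Antisense replicate 2 and scrambled replicate 2 were the lowest of their groups for all 3 genes. Scrambled replicate 5 and antisense replicate 5 were the highest of theirs. Gkn1 did not follow this order, with correlations from -0.18 to 0.33 with the other members, and Tff1 had 0.43 with Gkn2 and 0.096 with Tff3. These values describe 10 arrays that share their replicate numbers. Among all genes tested, those most like Gkn2 by this measure were Gmds (0.96), Chmp2b (0.96) and Gngt2 (0.96), and those most like Tff3 were Pink1 (0.98), 2500002B13Rik (0.97) and Tmem184b (0.96). Of these, Tmem184b rose with the antisense oligonucleotide (0.19, adjusted p = 0.0401), opposite to Tff3, and the other 5 did not pass the test.

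**Figure D3:**
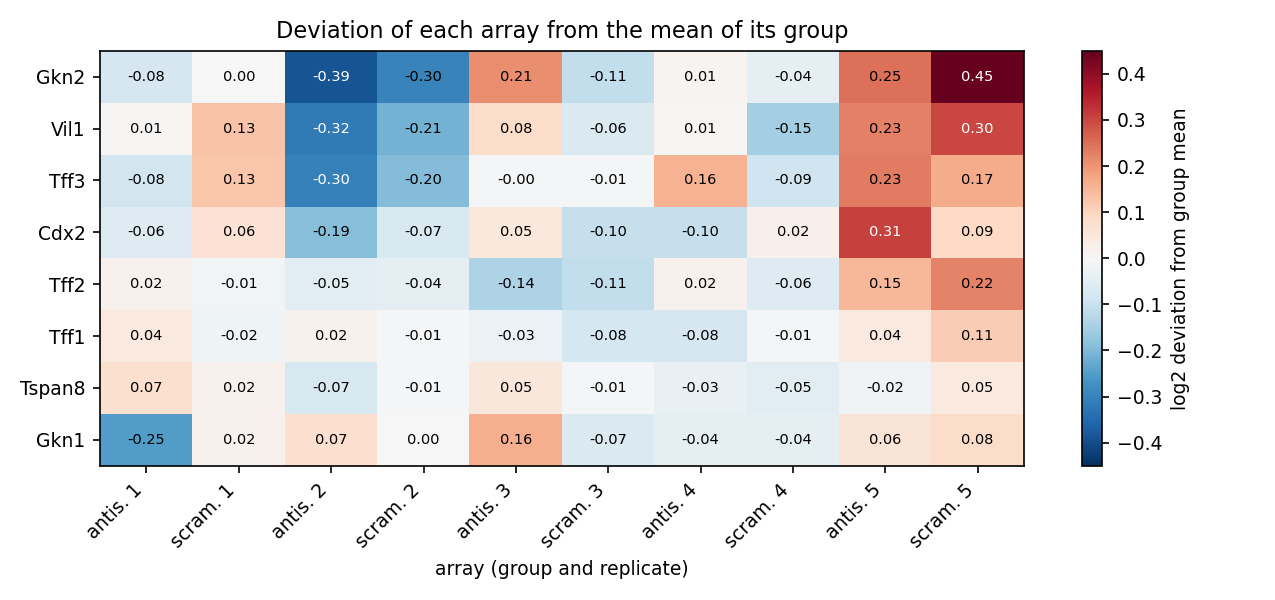
Deviation of each array's log2 level from the mean of its group (colour and number) for the 8 tested members, with the antisense and scrambled arrays of the same replicate number side by side. For Gkn2, Vil1 and Tff3 both arrays of replicate 2 are lowest and both arrays of replicate 5 are highest within their groups.

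**Figure D4:**
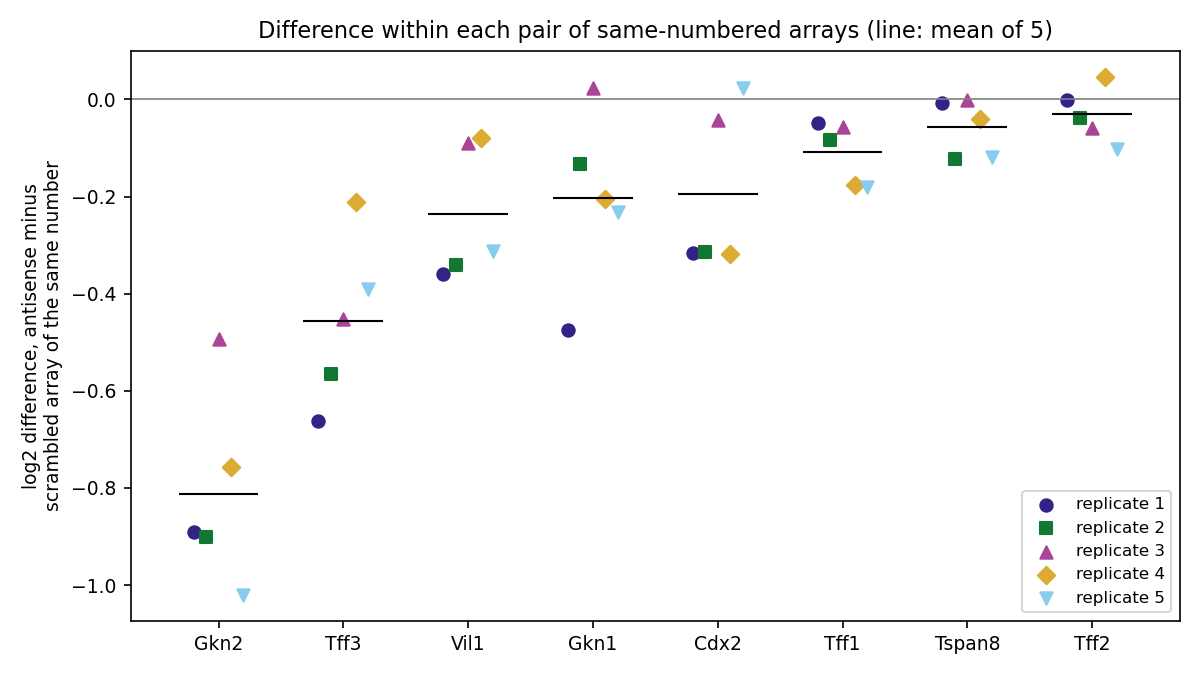
Log2 difference between the antisense and the scrambled array of the same replicate number (points, 5 per gene) and their mean (line) for the 8 tested members. Gkn2 lies between -1.02 and -0.49 and Tff3 between -0.66 and -0.21, while Gkn1, Cdx2 and Tff2 each have 1 pair above 0.

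The within-pair differences of Gkn2, from -1.02 to -0.49, and of Tff3, from -0.66 to -0.21, were below 0 in every pair, as were those of Tff1, Vil1 and Tspan8. That pattern held for 6.67% of all genes tested. For Tspan8 it rests on the brightest probe set, where the pair closest to 0 was at -0.0009. Each of the other Tspan8 probe sets had a pair above 0, by up to 0.067.

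Other intestinal genes were taken from a list of brush border and enterocyte genes. Of 20 tested with limma, none passed without the block, while 5 fell and none rose with it, beside the 1.04% of all genes called lower in that fit. An unadjusted limma p under 0.05 was reached by 9 of the 20 without and 12 with the block. Over all genes tested, that level was reached by 12.9% without and 17.2% with the block. The genes of the list that reached it did not all fall. Cdhr2 (0.16) and Ezr (0.08) had changes above 0 in both fits, and with the block so did Baiap2l1 (0.09). Fabp1, which carries fatty acids in enterocytes and hepatocytes, was at 7.97 ± 0.45 (SD, n = 5) in the scrambled and 7.26 ± 0.61 (SD, n = 5) in the antisense arrays, a change of -0.71 (adjusted p = 0.272 without and 0.0482 with the block). Its second probe set gave -0.69. Tm4sf5, which encodes a tetraspanin-like membrane protein, was at -0.65 (adjusted p = 0.0608 without and 0.00390 with the block). Fabp2, for the intestinal fatty acid binding protein, was at -0.53 (0.267 and 0.0165). Alpi, for intestinal alkaline phosphatase, was at -0.50 (0.109 and 0.0106), and Myo1a, for the brush border myosin, at -0.44 (0.156 and 0.00890). With 1 pair left out in turn, Tm4sf5, Alpi and Myo1a passed with the block each time, Fabp2 in 3 of 5 fits (adjusted p up to 0.0602) and Fabp1 in 1 of 5 (up to 0.129). The median change over the 20 genes was -0.05, with 11 below 0. The cadherin gene Cdh17 was at -0.01, Krt20 at 0.01, ezrin (Ezr) at 0.08, and Cdhr2, a protocadherin of the microvillus tip, at 0.16.

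Deviations of the 20 genes from their group means had a median correlation of 0.73 with those of Gkn2, beside 0.025 over all genes tested. Among the 5 genes that fell with the block it ran from 0.80 (Myo1a) to 0.91 (Tm4sf5), and the galectin gene Lgals4, at a change of -0.09, had 0.95. Not all of the list followed Gkn2: Eps8 had -0.59, Mttp -0.19, Eps8l2 0.020, Ush1c 0.11 and Ezr 0.14. Ttr, which encodes the liver protein transthyretin, was lower within each of the 5 pairs (-1.17, limma adjusted p = 0.0574 without and 0.000812 with the block). Its other probe sets gave -1.23, -1.07 and -0.67, so the size for Ttr depends on the probe set. The brightest Ttr probe set had a correlation of 0.90 with Gkn2. The part of such a shared order of the arrays in the changes of Gkn2 and Tff3 was not tested.

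Goblet cell and mucus genes gave a call in each direction. Fcgbp, which encodes a protein bound into mucus, rose from 8.38 ± 0.071 (SD, n = 5) to 8.71 ± 0.035 (SD, n = 5), a change of 0.34 (SE 0.042, adjusted p = 0.00190), and was called with any array left out. Klf4, a transcription factor of goblet and other differentiated epithelial cells, fell from 10.80 ± 0.14 (SD, n = 5) to 10.48 ± 0.093 (SD, n = 5), a change of -0.32 (SE 0.068, adjusted p = 0.0361), with -0.25 on its second probe set. Klf4 missed the threshold without any 1 array other than scrambled replicate 2, with adjusted p from 0.0508 to 0.0948, and at 0.0546 with no filter. Muc13, which encodes a membrane mucin, was at -0.23 (adjusted p = 0.388) and fell with the block (0.0437), but its second probe set was at -0.06 and it passed in 1 of 5 fits with a pair left out. Of 11 tested genes, 1 rose and 1 fell without the block and 1 rose and 2 fell with it, and the median was -0.04.

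None of the 11 tested stomach genes passed limma's test in either fit (1 and 2 at an unadjusted p under 0.05), with a median change of -0.004: Psca was at -0.15 (adjusted p = 0.226), Barx1 at 0.13 and Cldn18 at 0.09. None of the 11 gut endoderm transcription factors passed (2 and 4 at an unadjusted p under 0.05), with 9 below 0 and a median of -0.05. Gata5 was at -0.16 (adjusted p = 0.132), Elf3 at -0.19 (0.319) and Foxa1 at -0.09 (0.441). None of 18 tetraspanins passed (1 and 2), with a median of 0.02, among them Cd81 at 0.13 (adjusted p = 0.152), Tspan13 at -0.22 and Cd151 at 0.05. The BRICHOS family members outside the gastrokines, Itm2a, Itm2b and Itm2c, were at -0.07, 0.04 and 0.08, and none passed (0 and 1). Of 13 secretory pathway disulfide isomerases and oxidases, relatives or partners of Agr2, none passed (1 and 2), with Ero1a at -0.33 (adjusted p = 0.135), Erp29 at -0.09, Ero1b at -0.06 and a median of 0.003.

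**Figure D5:**
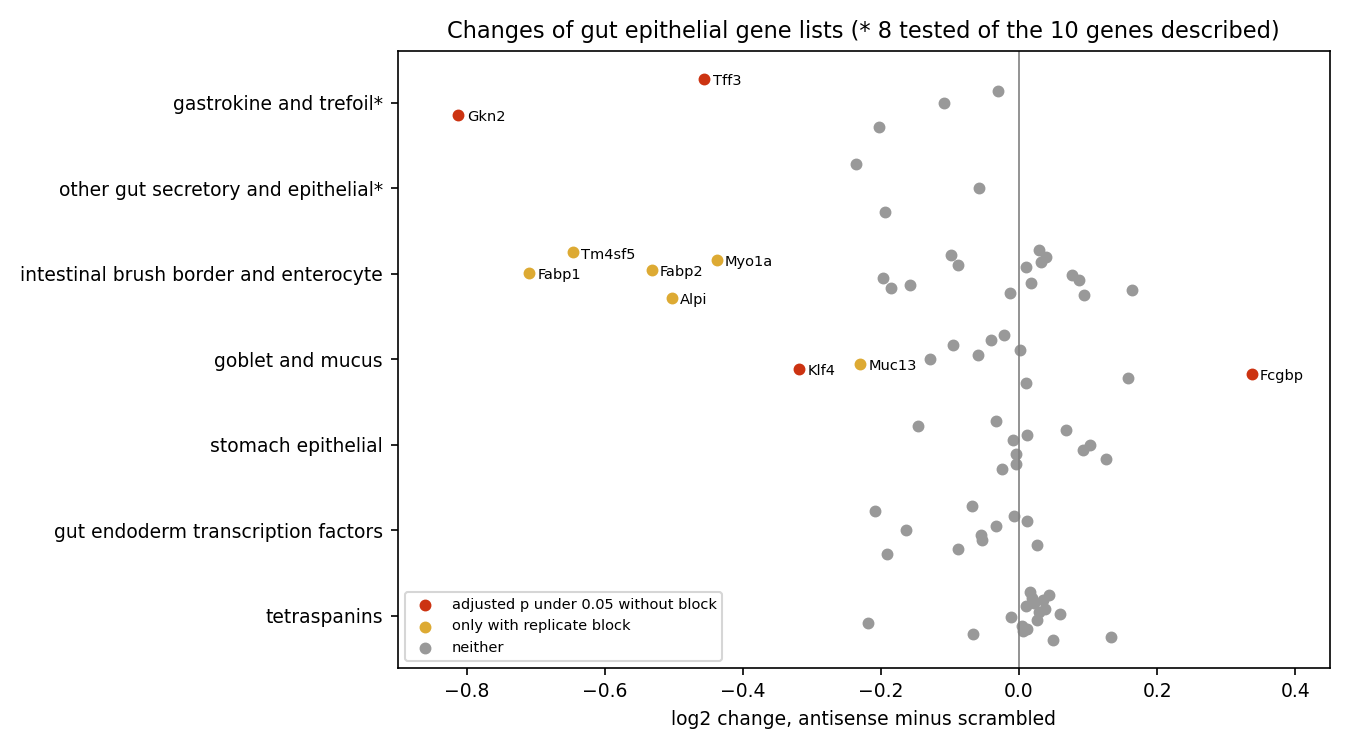
Log2 change, antisense minus scrambled, of each tested gene (point) in 7 lists, those of gut genes and that of the tetraspanin family. Points are coloured by whether the adjusted p was under 0.05 without a block (red), only with the replicate block (yellow) or in neither fit (grey). Fcgbp is the only coloured point above 0, and the brush border list has 5 yellow points from -0.71 to -0.44.

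The genes beside Gkn2 and Tff3 gave no other call. Next to the gastrokines, Antxr1 was at -0.14 (adjusted p = 0.352), Bmp10 at 0.01 and Arhgap25 at 0.06, and D6Ertd527e, under the filter level, was at 0.16. Around the trefoil cluster, Abcg1, Umodl1, Glp1r and Tmprss3 all lay under the filter level and were not tested.

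Among lists for other cells, 3 of 6 blood or macrophage genes were tested, while Ptprc, Adgre1 and Hba-a1 lay under the filter level. Cd68, a lysosomal glycoprotein gene, rose by 0.39 (limma adjusted p = 0.0176). It missed the threshold without antisense replicate 3 (limma adjusted p = 0.0523) or 4 (0.0551). Of the same list, Csf1r, at 6.47 in the antisense and 6.41 in the scrambled arrays, and Cx3cr1, at 4.64 and 4.57, passed in neither fit. The mean level of that list ran from 4.64 to 4.73 in the antisense and from 4.54 to 4.73 in the scrambled arrays. None of the 5 tested mesenchymal and 3 tested endothelial markers passed (0 at an unadjusted p under 0.05 in either fit). Of the endothelial genes, Flt1 was at 8.17 in the antisense and 8.27 in the scrambled arrays, Kdr at 6.08 and 6.09 and Erg at 5.39 and 5.35, while Pecam1, Cdh5 and Tek lay under the filter level. The tested mesenchymal genes ran from Des (5.67 and 5.65) to Col1a2 (4.73 and 4.81), and Col1a1, Col3a1 and Lum lay under it. The part of RNA quality or of other cells in these changes was not tested.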

How the data were processed

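Total RNA from BMEL cells was amplified, biotin-labelled and measured on 10 single-colour mouse arrays, 5 per group, with group and replicate number taken from the titles. What the authors deposited is a log2 expression level for each probe set on each array. The scale was read from the values (highest 14.1827), while the sources used here do not name the summary or normalization method. The table holds 45101 probe sets, 64 of them array controls. The platform annotation gives 1 symbol for 34945 probe sets, several for 932 (not used) and none for 9160. Symbols were updated by gene identifier (34741 matched).

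Each gene was represented by its brightest probe set over all arrays, and genes under the 40th percentile of probe set means (4.559) were left out. Antisense and scrambled arrays were tested against each other in R 4.3.3 by limma 3.58.1 (lmFit, eBayes, two-sided; Benjamini-Hochberg over 12633 genes; threshold 0.05). The replicate numbers, shared by both groups, entered a second fit as a block. After subtraction of group means, arrays with 1 number in common correlated at 0.112 to 0.377, against -0.312 to 0.231 for other pairs. These ranges overlap and come from the values tested, so they do not settle whether the numbers pair the arrays. The fit with the block is therefore given beside the main fit, which has none. What a number stands for is not stated in the labels. The number of arrays limits the precision.

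On simulated data with 200 of 12633 genes changed, the procedure recovered 59.0% of log2 changes of 0.25 and 95.9% of 0.5, with 4.84% of calls false. These rates need not hold for genes with a wide spread between arrays. Without the block, Gkn2 was called at -0.81, but Ttr at -1.17 and Fabp1 at -0.71 were not. The rule named every member, list genes past the threshold and otherwise the 3 with the smallest p, the 3 genes most like Gkn2 or Tff3, and the 3 neighbours on each side of each. Other genes, such as Cdh17, Krt20, Ezr, Cdhr2, Lgals4, Ctse, Anxa10, Flt1 and the other named markers, were chosen after their values were seen. The members and lists were chosen with earlier results of these data known. Alternatives were a replicate block, quantile normalization, median centring, 2 other filters, the mean of probe sets and leaving out each array, and, added after seeing the data, the block with a pair left out. Sequences come from RefSeq (GRCm38.p6). Plots used Python 3.11.15 and matplotlib 3.10.9.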

Additional observations from a re-analysis of the deposited data

Results flagged for a closer look

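Within groups of 5 arrays, 2 of 34 sets of member values had an array far from the others, where chance gives about 1 in 20. For the dimmer Gkn1 probe set, scrambled replicate 5 (4.33) stood above the other scrambled arrays by a gap of 0.851 of the group's range. For Muc1, antisense replicate 3 (4.16) stood below the other antisense arrays by a gap of 0.840 of the range. Both probe sets lie under the filter level and enter no call.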

How the results depend on the processing

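Gkn2 was called lower under every alternative run, and Tff3 under the replicate block, quantile normalization, median centring, the 60th percentile filter and the mean of probe sets. With no filter 1 member was called, and with 1 array left out 1 to 2 were. With the replicate block and a pair left out, an alternative chosen after seeing the data, 2 members were called each time. The count of genes called was 193, and 385 with the replicate block. It ranged from 92 to 202 with 1 array left out, and was 95, 92 and 123 without antisense replicates 3 to 5 and 101 without scrambled replicate 3. Over probe sets 162 were called, 346 with the replicate block and 65 to 143 with 1 array left out. With 1 array left out, the change of Tff2 ran from -0.068 to 0.025, and its sign changed without antisense replicate 3 (0.0038) or scrambled replicate 5 (0.025). The cause of these shifts was not tested. The block changed no call of a member among the filtered genes, but Tff3 passed only with it when no filter was used (adjusted p 0.0518 without and 0.0219 with the block) and when probe sets were tested (0.0673 and 0.0249). Muc1 and Agr2 were too dim to be tested, and the 60th percentile filter also removed Gkn1 and Tff2.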
